A study of Mus musculus with 8 samples.

Results

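The genes described here make the machinery that reads messenger RNA into protein. They are the genes of initiation factors (names beginning Eif1 to Eif6), elongation factors (Eef1 and Eef2) with their modifying enzymes, and aminoacyl-tRNA synthetases. The synthetases load each tRNA with its amino acid. All these genes were measured in mouse cells sorted and labelled as eosinophils. The genes were chosen by a rule on their names, set with earlier results of these data known. In the expression table, 104 of the 38392 genes met the rule. Of these, 98 averaged at least 10 reads per library. One of the 104, Eif2c5, carries an initiation factor name for historical reasons but belongs to the argonaute-like genes, and it was kept only because the rule took it.

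Eosinophils, the granulocytes of allergy and parasite defence, mature in bone marrow and take up residence in tissues such as the gut wall. RNA-seq was performed on cells sorted as eosinophils from both sites, with 4 libraries from bone marrow and 4 from small intestine. The mice were female, of the strain C57/BL6 and of wildtype genotype, with no treatment and no age given in the labels. Bone marrow cells were sorted as CD11b+Ly6G-Ly6C-SiglecF+SSChi and intestinal cells as CD11b+MHC-II-SiglecF+SSChi. The intestine was stripped of epithelium, digested with enzyme at warm temperature and enriched on CD11b beads, whereas marrow was flushed and sorted directly, so tissue and handling cannot be told apart. The numbers in the sample titles are not shared between the tissues. Nothing else in the sources used here says whether the samples of both tissues came from the same animals. The p-values measure the spread between these libraries only.

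Translation starts when the small ribosomal subunit, carrying the initiator tRNA held by eIF2 and helped by eIF1, eIF1A, eIF3 and eIF5, is brought to a capped mRNA by eIF4F, the complex of the cap-binding protein eIF4E, the scaffold eIF4G and the helicase eIF4A. eIF2 has to be recharged by the exchange factor eIF2B, and kinases that phosphorylate eIF2 slow this step under stress. Elongation then uses eEF1A to deliver tRNAs, eEF1B to recharge eEF1A, and eEF2 to move the ribosome, with eIF5A easing passage through difficult stretches. Eosinophil precursors in the marrow are known for producing large stores of granule protein before they leave for the tissues.

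The libraries held 11508002 to 21289164 reads in genes, and values below are normalised counts, which are recovered reads divided by the size factor of each library. Bone marrow libraries are named BM_1, BM_3, BM_4 and BM_5 and intestinal ones SI_6, SI_7, SI_10 and SI_11, and values are always given in this order. All 12 eosinophil marker genes were detected, which does not by itself settle the eosinophil label. Together they took 0.02215% to 0.03863% of the reads in bone marrow and 0.296% to 0.3595% in small intestine. In bone marrow Prg2, the highest of the 12, averaged 1831 normalised counts, beside 149860 for the neutrophil precursor gene Mpo. Judged by these markers, the eosinophil label of the marrow libraries was not borne out, and which cells they held was not tested. The receptors and surface genes Ccr3, Il5ra, Siglecf and Adgre1 were higher in small intestine, as were Alox15 and Gata1, while the granule genes Prg2, Epx, Prg3, Ear1 and Ear2 were higher in bone marrow. Transcripts of neutrophil precursors (Mpo, Elane, Ltf and 9 others) took 3.82% to 4.50% of the reads in bone marrow and 0.00796% to 0.00987% in small intestine, and all 12 were lower in small intestine. The 16 transcripts of dividing cells took 0.504% to 0.564% and 0.0245% to 0.0678%, and all were lower. Transcripts of intestinal epithelium (10 of 10 higher) took 0.00141% to 0.00169% and 0.0366% to 0.248%, with SI_6 the highest, and those of warm dissociation, such as Fos and Hspa1a (14 of 15 higher, 1 lower), took 0.0131% to 0.0153% and 0.565% to 0.721%. Erythroid (8 of 10), B cell (3 of 6) and mast cell or basophil (3 of 6) transcripts were lower in small intestine with none higher. Paneth cell (6 of 6), pancreatic (6 of 7), macrophage and dendritic cell (11 of 12) and fibroblast (5 of 6) transcripts were higher with none lower. Plasma cell transcripts were higher for 4 and lower for 1 of 6. By the test given below, 12.9% of all genes were lower and 22% higher. Among genes averaging at least 10 reads, these shares were 28.6% and 34.6%. Of the T cell transcripts, 1 of 6 (16.7%) was higher and none lower, which is not above those shares. In these bulk samples, fewer cells of a type and less RNA per cell cannot be told apart, and the part of other cells in the results below was not tested.

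In small intestine, 61 of the 104 translation genes (58.7%) were lower than in bone marrow, 8 (7.69%) were higher and 35 did not pass the test. A gene was called when its adjusted p, from limma with Benjamini-Hochberg adjustment over all genes, was under 0.05. Among all 38392 genes, 12.9% were called lower and 22% higher, and among the 16215 genes averaging at least 10 reads, 28.6% and 34.6%. Differences are intestine minus marrow in deposited log2 units, and their median over the 104 genes was -0.85, beside 0.37 over all genes and 0.12 over those with at least 10 reads. In 66 of the 104, every intestinal library lay below every marrow library, beside 13.9% of all genes and 31.3% of those with at least 10 reads. In 13 every intestinal library lay above, beside 20.3% and 36%. The difference was at least 1 on the log2 scale for 39 of the 61 lower and 6 of the 8 higher genes, and among all genes 9.82% were lower and 19.7% higher by that much.

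**Figure D1:**
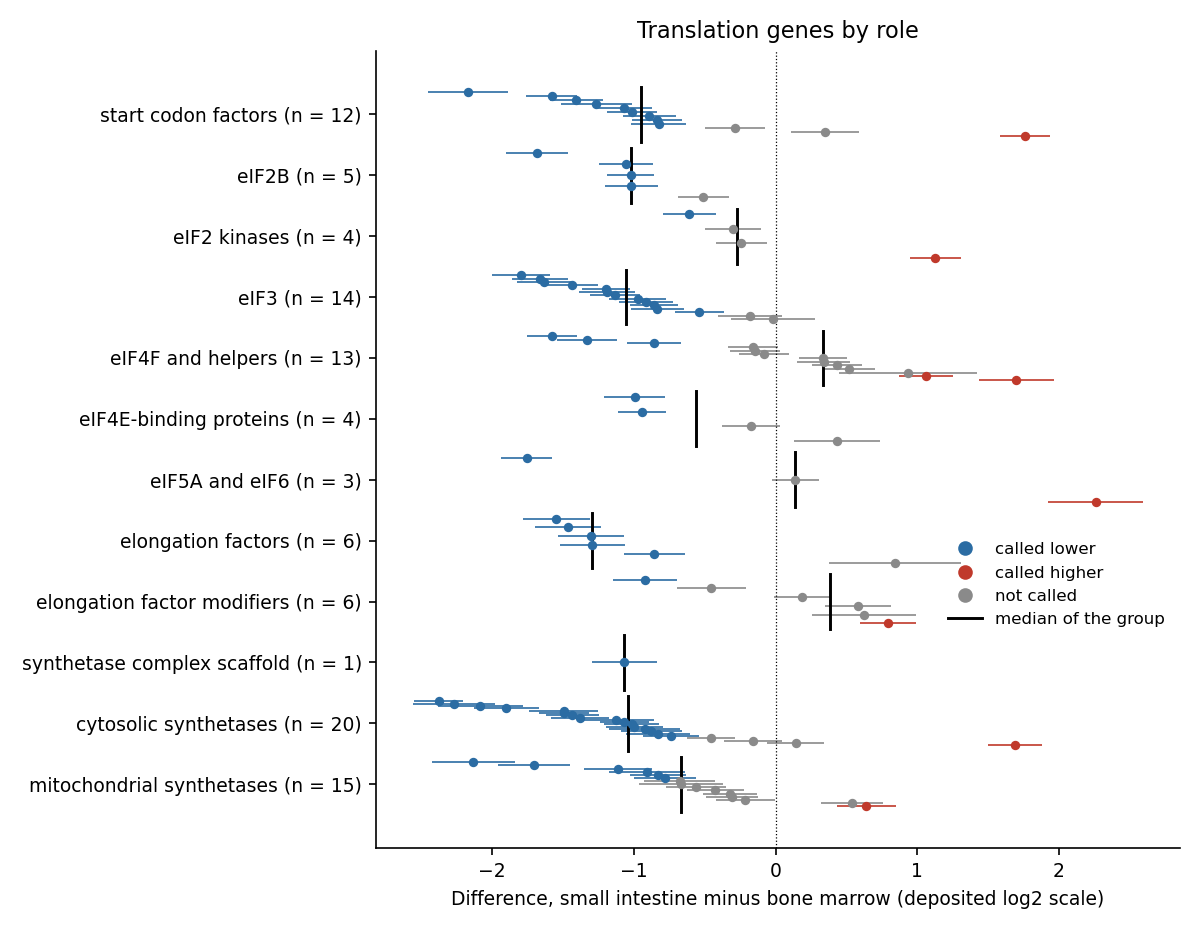
Difference between small intestine and bone marrow (x axis, deposited log2 scale) for 103 of the 104 translation genes, grouped by role (y axis). Each point is a gene with its limma standard error, n = 4 libraries per tissue, coloured by its call, and black bars are group medians. The eIF3, elongation factor and cytosolic synthetase points lie mostly left of 0, while those of eIF4F and helpers lie on both sides with a median of 0.34.

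As a share of all reads in genes, the 104 transcripts took 1.61% to 1.84% in the marrow libraries and 0.911% to 1.01% in the intestinal ones. Without Lars2, whose counts are treated separately below, the shares were 1.29% to 1.42% and 0.756% to 0.833%, and the tissues did not overlap either way. Of all called genes, 36.8% were lower, and when each library was centred on the median of all genes instead, this share was 70.5%. Under that scaling 74 of the translation genes were called lower and 1, Eif5a2, higher, and the median over all genes was -0.53. Centred on the median of genes averaging at least 10 reads, 63 were lower and 7 higher.

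Promoter sequences (RefSeq, build GRCm38.p6, 250 bases before the start) were matched by symbol for 79 of the 104 genes. The E-box CACGTG, the hexamer that Myc and Max bind, reads the same on both strands and was present in 15 of the 79 (19.0%), beside 6.86% of all genes in the table of promoters. Of the 15 genes with it, 10 were lower and 2 higher (median -0.91), and of the 64 without it, 38 were lower and 4 higher (median -0.83). The composite element TGATGNAAN on either strand, which ATF4 dimers bind, was in 5 of 79 (6.33%) beside 3.89% of all genes, namely Aars, Gars, Tars, Eif2s3x and Eef2k. The element TGACGTCA was in 0 of 79 and in 1.77% of all genes. A match describes these letters and not a bound site. The windows below show the E-box in a synthetase and an initiation factor that fell and in the kinase gene that rose, and the composite element at another start of that kinase gene. Capitals mark the motif, and each run is 5′ to 3′ on the strand of the gene.
Iars, chr13:49682036-49682091, plus strand: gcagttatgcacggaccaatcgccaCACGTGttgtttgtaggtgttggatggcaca
Eif5a, chr11:69921430-69921485, minus strand: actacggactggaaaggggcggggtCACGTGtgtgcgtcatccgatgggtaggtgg
Eef2k, chr7:120842775-120842830, plus strand: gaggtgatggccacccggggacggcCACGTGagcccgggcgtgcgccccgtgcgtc
Eef2k, chr7:120851079-120851137, plus strand: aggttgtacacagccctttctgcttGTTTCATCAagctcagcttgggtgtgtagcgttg
Counted from the start, the E-box begins at -69 in Iars and at -31 in Eef2k. These flanks differ, and Eef2k, at 0.79, moved opposite to Iars, at -2.08, and Eif5a, at -1.76.

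The start codon factors fell in 9 of 12 cases, and only Eif1 was higher. Eif1ax, an X-linked gene for eIF1A, which steadies the initiator tRNA during scanning, had normalised counts of 910.2, 946, 995 and 853 in the marrow libraries and 358, 172, 155 and 174 in the intestinal ones. Every intestinal library was below every marrow library, although SI_6 stood apart as the highest of its group. The difference was -2.17 ± 0.28 (SE; adjusted p = 0.000469). Eif2s1, which encodes the eIF2 subunit that the stress kinases phosphorylate, had 1803, 1767, 1572 and 1918 in the marrow libraries and 667, 624, 506 and 559 in the intestinal ones, a difference of -1.58 ± 0.18 (SE; adjusted p = 0.000238). The other eIF2 subunits, Eif2s2 and Eif2s3x, were also lower, at -1.01 ± 0.17 and -0.84 ± 0.17 (adjusted p = 0.00209 and 0.00567, limma). Eif5 and Eif2d did not pass the test, at 0.35 ± 0.24 and -0.29 ± 0.21.

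Eif1 went the other way. Its product scans for the start codon and rejects poor ones, and the gene (chr11:100319885-100322096, GRCm38) had normalised counts of 821, 905, 714 and 734 in the marrow libraries and 2614, 2923, 2636 and 2576 in the intestinal ones. All intestinal libraries were above all marrow ones, and the difference was 1.76 ± 0.18 (SE; adjusted p = 0.000107). With the libraries centred on the median of all genes it was 0.86, with an adjusted p of 0.137. Eif1b, the related gene on another chromosome, had 429, 462, 519 and 394 in the marrow libraries and 192, 209, 190.3 and 264 in the intestinal ones and fell, at -1.07 ± 0.20 (adjusted p = 0.00294, limma). In length-corrected levels (reads per kilobase of exon, scaled to the same total over all genes in each library), Eif1 went from 49.1 ± 1.87 to 202 ± 26.4 (SD, n = 4) and Eif1b from 52.7 ± 10.6 to 29.7 ± 3.28. The 2 genes thus had like levels in marrow and unlike levels in intestine. The total behind these levels includes the ribosomal RNA genes mt-Rnr1, mt-Rnr2 and CT010467.1. Together they took 18.2% to 22.7% of reads in the marrow libraries and 9.37% to 18.5% in the intestinal ones. Between tissues, length-corrected levels can therefore change by another amount, or in another direction, than normalised counts.

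The subunits of eIF2B were lower in small intestine in 4 of 5 cases. Eif2b1, of the regulatory part of the complex, had normalised counts of 485, 511, 505 and 443 in the marrow libraries and 211, 123, 139 and 134 in the intestinal ones, and fell by 1.68 ± 0.22 on the log2 scale (adjusted p = 0.000439, limma). Eif2b2, Eif2b3 and Eif2b4 fell together, at -1.05, -1.02 and -1.02. Eif2b5, the catalytic subunit, was at -0.51 ± 0.18 (SE; adjusted p = 0.0563) and did not pass, although its tissues did not overlap. It passed in 4 of the 8 fits that left out 1 library, with adjusted p from 0.0187 to 0.0367 in those.

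Among the 4 eIF2 kinases, 1 rose and 1 fell (25% each). These shares were not above those of genes averaging at least 10 reads, 34.6% higher and 28.6% lower. Among all genes, 22% were higher and 12.9% lower. Eif2ak4 encodes GCN2, which senses uncharged tRNA. Its normalised counts were 516, 497, 532 and 462 in the marrow libraries and 934, 1139.9, 1134 and 1211 in the intestinal ones, with no overlap and a difference of 1.13 ± 0.18 (SE; adjusted p = 0.00125). Eif2ak2 encodes PKR, which senses double-stranded RNA, and had 1348, 1218, 996 and 1133 in the marrow libraries and 771, 871, 682 and 744 in the intestinal ones, a difference of -0.61 ± 0.19 (SE; adjusted p = 0.0348). Without BM_1 or without BM_3 this call was lost, with adjusted p of 0.0892 and 0.0625. Eif2ak3 (PERK, the kinase of the endoplasmic reticulum) and Eif2ak1 (HRI, the heme-regulated kinase) did not pass, at -0.30 ± 0.20 and -0.24 ± 0.18, and their tissues overlapped. With each library centred on the median of all genes, Eif2ak4 was at 0.23 (adjusted p = 0.720, limma), while Eif2ak3 and Eif2ak1 passed as lower, at -1.20 and -1.14.

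The genes of eIF3 fell almost throughout. eIF3 is the large scaffold that joins the small ribosomal subunit to eIF4G, and 12 of its 14 genes fell while none rose. Among those that fell, differences ran from -0.54 (Eif3e) to -1.80 (Eif3l). Eif3l had normalised counts of 1933, 1867, 2244 and 1700.4 in the marrow libraries and 712, 509, 463 and 551 in the intestinal ones, and Eif3i had 1496, 1441, 1389 and 1204 in the marrow libraries and 524, 469, 348 and 410.1 in the intestinal ones. Both were lower in each intestinal library than in any marrow library, with differences of -1.80 ± 0.21 (SE; adjusted p = 0.000234) and -1.66 ± 0.20 (SE; adjusted p = 0.0003). The most abundant subunit by length-corrected level in either tissue was Eif3a, at 160.3 ± 17.4 in bone marrow against 106 ± 6.66 in small intestine (SD, n = 4). Eif3e did not pass without BM_1, BM_3 or BM_4. The genes that did not pass were Eif3j1 and Eif3j2, both for the loosely attached subunit eIF3j, and Eif3j2 had only 2 to 9 reads per library. Summed over the 14 genes, the length-corrected level was 941 ± 107 for marrow and 519 ± 18.4 for intestine.

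Of 13 genes for eIF4F and its helpers, 3 fell (23.1%), 2 rose (15.4%) and 8 did not pass. Among all genes 12.9% were lower and 22% higher, and among those averaging at least 10 reads 28.6% and 34.6%. The genes that rose were Eif4e3 and, on very few reads, Eif4e1b. The numbers of calls among the 13 depended on the fit. There were 6 higher under an intensity trend or limma voom and 4 or 5 without BM_5, SI_10 or SI_6. Centring on the median of all genes gave 0 higher, and quantile normalisation gave 6 lower. Eif4e, the cap-binding protein, fell most, with normalised counts of 1148, 1049, 1071 and 958 in the marrow libraries and 410.4, 339.8, 314 and 344 in the intestinal ones and a difference of -1.58 ± 0.18 (SE; adjusted p = 0.000214). Eif4b, a helper of the helicase, and Eif4g1, the main scaffold, fell as well, at -1.33 ± 0.21 and -0.86 ± 0.19 (adjusted p = 0.00146 and 0.00778, limma). The helicase genes Eif4a1 and Eif4a2 were at -0.16 ± 0.18 and 0.52 ± 0.18 and did not pass (adjusted p = 0.504 and 0.0592). Eif4a2 was called higher with an intensity trend, limma voom or a filter at 10 reads (adjusted p = 0.00119, 0.00201 and 0.00824) and in 4 of the 8 fits without 1 library, and Eif4a1 lower after quantile normalisation (-0.59, adjusted p = 0.0173). Eif4g2, a scaffold that lacks the part that binds eIF4E, had 21323, 19773, 20173 and 20423 in the marrow libraries and 22353, 26657, 26359.7 and 28094 in the intestinal ones. Its intestinal libraries all lay above the marrow ones, yet the difference of 0.34 ± 0.17 did not pass (adjusted p = 0.176, limma). The sign depended on the scaling, since it was -0.52 after quantile normalisation, with an adjusted p of 0.0152.

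Eif4e3, a cap-binding relative of Eif4e, rose. Its normalised counts were 262, 339.8, 335 and 269 in the marrow libraries and 558, 603, 641 and 723 in the intestinal ones, with no overlap and a difference of 1.06 ± 0.19 (SE; adjusted p = 0.00265), which was 0.16 (adjusted p = 0.806) after centring on the median of all genes. Of its 2515 exon bases, 373 are shared on the same strand with Gm20696, which was also higher, by 1.05 ± 0.18 (adjusted p = 0.00187, limma), so the reads of these genes could not be fully separated. The germline relative Eif4e1b was called higher on very few reads. It had 0 reads in all marrow libraries and 1, 3, 5 and 2 in the intestinal ones, which with a floor of 3 reads over the marrow libraries is at least 5.36-fold higher. Eif4a3l1 was at 0 in all marrow libraries too and had 6 reads in small intestine.

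Of the 4 genes for proteins that hold eIF4E back, 2 fell. Eif4ebp1 had normalised counts of 338, 263, 218 and 243 in the marrow libraries and 112, 119, 162 and 130.4 in the intestinal ones, a difference of -0.99 ± 0.22 (SE; adjusted p = 0.00704). Eif4enif1, which carries eIF4E into the nucleus, was at -0.94 ± 0.17 (SE; adjusted p = 0.00269). Eif4ebp2 was the more abundant binding protein by length-corrected level, at 28.0 ± 2.27 in bone marrow against 29.9 ± 3.75 in small intestine. It did not pass, at -0.17 ± 0.20, and the level, which is scaled otherwise, went the other way. Eif4ebp3 had few reads and did not pass either.

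**Figure D2:**
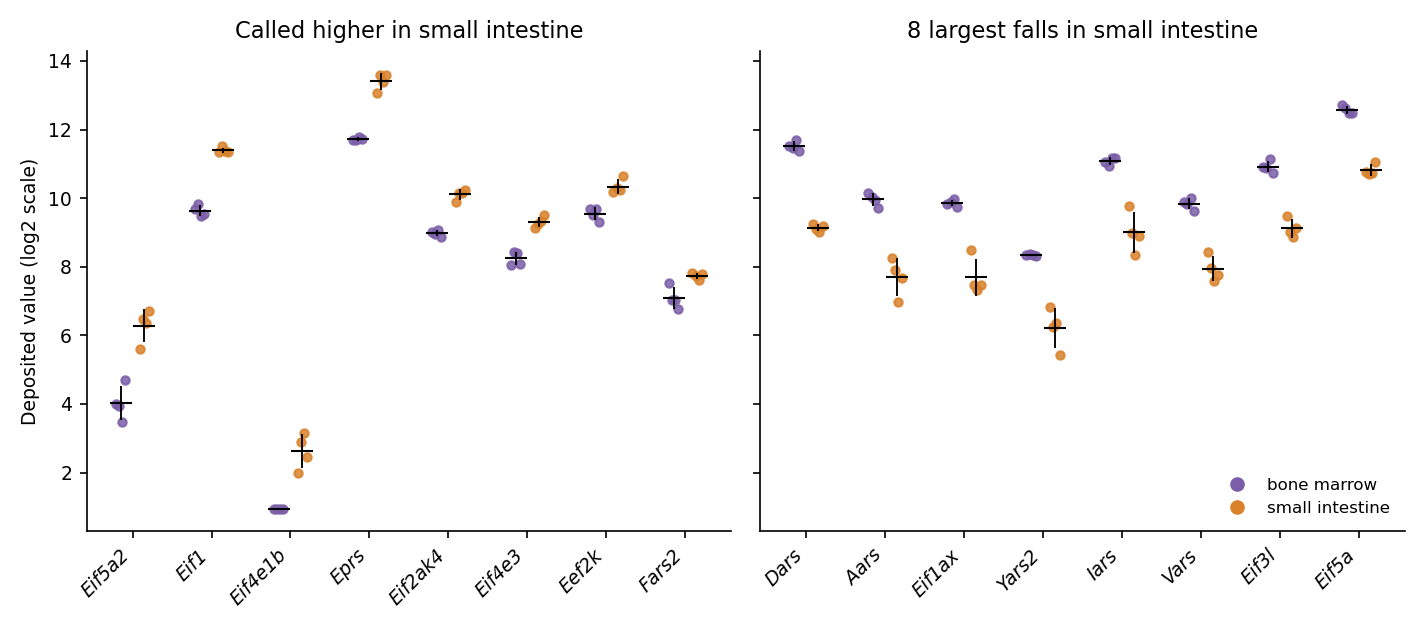
Deposited values on the log2 scale (y axis) of the 8 translation genes called higher (left) and the 8 with the largest falls (right) in each library, with bone marrow in purple and small intestine in orange. Bars are the mean and SD of 4 libraries. No gene shown has overlapping tissues, and the Eif4e1b values rest on at most 5 reads per library.

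eIF5A is the only protein that carries hypusine, an amino acid made from spermidine, and its genes split. Eif5a (chr11:69916714-69921958) had normalised counts of 6667, 6382, 5735 and 5671 in the marrow libraries and 1746, 1663, 1705 and 2130 in the intestinal ones, with no overlap and a difference of -1.76 ± 0.18 (SE; adjusted p = 0.000124). Eif5a2, the minor relative, had 12.3, 11.7, 7.66 and 22.3 in the marrow libraries and 44.8, 84.6, 77.7 and 102 in the intestinal ones, and rose by 2.26 ± 0.34 (adjusted p = 0.000938, limma). BM_5 was the highest marrow library and SI_6 the lowest intestinal one, without overlap. By length-corrected level Eif5a stayed far above Eif5a2, with 119 ± 7.94 against 2.41 ± 0.729 in small intestine. Eif6, which keeps the ribosomal subunits apart, did not pass, at 0.14 ± 0.17.

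The elongation factors were among the most abundant of these genes and fell in 5 of 6 cases. Eef1a1 had the highest length-corrected level in both tissues, 1321 ± 274 in bone marrow against 575 ± 117 in small intestine (SD, n = 4). Its normalised counts were 27481, 24262, 28788 and 19978 in the marrow libraries and 12397, 8669, 7053 and 8709.5 in the intestinal ones, a difference of -1.46 ± 0.24 (SE; adjusted p = 0.00144). Copies of Eef1a1 are scattered through the genome, and how reads matching several places were treated is not given in the sources used here. The eEF1B genes Eef1g, Eef1d and Eef1b2 fell, at -1.55 ± 0.24, -1.30 ± 0.23 and -1.29 ± 0.23. Eef1g had 4102, 4735, 4191 and 3776 in the marrow libraries and 2156, 1259, 1185 and 1300.3 in the intestinal ones, and SI_6 stood apart as the highest intestinal library. Eef2 had 12584, 11592, 11554 and 8789 in the marrow libraries and 7809, 5782, 5127 and 5935 in the intestinal ones, a difference of -0.86 ± 0.21 (SE; adjusted p = 0.014). Eef1a2, the form of muscle and neurons, had at most 4 reads in any library and was not called.

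The enzyme that switches eEF2 off moved the opposite way to eEF2. Eef2k, the kinase of eEF2, had normalised counts of 818, 729.7, 818 and 623 in the marrow libraries and 1148, 1248, 1208 and 1593 in the intestinal ones. All intestinal libraries were above all marrow libraries and the difference was 0.79 ± 0.20 (SE; adjusted p = 0.0138), but it was -0.11 (adjusted p = 0.872) after centring on the median of all genes. Eef2kmt, a methyltransferase for eEF2, fell, at -0.92 ± 0.22 (adjusted p = 0.0121, limma). The 4 methyltransferase genes for eEF1A did not pass. Eef1e1, despite its name, is a scaffold of the multisynthetase complex, and it was at -1.07 ± 0.23 (SE; adjusted p = 0.00653).

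Among the 20 cytosolic synthetases, 16 fell, 1 rose and 3 did not pass. Dars, for aspartate, fell most, with normalised counts of 2937, 2809, 3327 and 2662 in the marrow libraries and 603, 545, 515 and 579.6 in the intestinal ones, a difference of -2.38 ± 0.17 (SE; adjusted p = 2e-05) and a narrow spread within each tissue. Aars, for alanine, had 1141, 1053, 985 and 840.4 in the marrow libraries and 301, 234, 121 and 201 in the intestinal ones, a difference of -2.27 ± 0.29 (SE; adjusted p = 0.000417), and of its 9282 exon bases 1326 are shared with Exosc6 on the same strand. Iars and Vars, for isoleucine and valine, were at -2.08 ± 0.30 and -1.90 ± 0.23. Lars, Yars and Wars, for leucine, tyrosine and tryptophan, did not pass, at -0.46 ± 0.17, -0.16 ± 0.20 and 0.14 ± 0.20. The calls of Qars and Sars were lost without BM_1, and that of Qars also without BM_4.

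Eprs was the exception. It encodes the fused glutamate and proline synthetase, and its gene (chr1:185363044-185428360) had normalised counts of 3301, 3285, 3532 and 3374 in the marrow libraries and 8609, 12434, 10634 and 12340.1 in the intestinal ones. The lowest intestinal library, SI_6, was still above every marrow library, and the difference was 1.69 ± 0.19 (SE; adjusted p = 0.000216). Centred on the median of all genes, it was 0.79 with an adjusted p of 0.178. By length-corrected level Eprs rose from 24.5 ± 3.78 to 95.6 ± 18.0 (SD, n = 4), beside Nars, the asparagine synthetase, which went from 109.6 ± 15.1 to 64.8 ± 6.18. Eprs and 7 other synthetases form the multisynthetase complex with scaffold proteins. Of these 8, 6 fell and 1 rose, and of the 12 synthetases outside it, 10 fell and 0 rose. The scaffolds Aimp1, Aimp2 and Eef1e1 were all lower, at -0.80, -1.29 and -1.07.

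Of the 15 mitochondrial synthetases, which are encoded in the nucleus, 6 fell, 1 rose and 8 did not pass, and 13 were lower after centring on the median of all genes. Yars2, for tyrosine, had normalised counts of 323, 327, 322 and 313 in the marrow libraries and 109, 72.1, 77.7 and 39.1 in the intestinal ones, a difference of -2.14 ± 0.29 (SE; adjusted p = 0.000618). The marrow values were nearly equal and the intestinal ones spread widely, with SI_11 the lowest and SI_6 the highest. Mars2, for methionine, was at -1.71 ± 0.25 (SE; adjusted p = 0.000952). Rars2 and Aars2 fell, at -0.91 ± 0.27 and -0.78 ± 0.22, but the call of Rars2 was lost in 6 and that of Aars2 in 3 of the 8 fits without 1 library. Fars2, for phenylalanine, was called higher at 0.64 ± 0.21 (SE; adjusted p = 0.0448) with 180.1, 127, 127 and 105 in the marrow libraries and 220.5, 207, 193 and 216 in the intestinal ones. Its call was lost with limma voom (adjusted p = 0.0636), with both median centrings and without BM_3, BM_4, SI_6, SI_7 or SI_11, and its sign turned to -0.26 after centring on the median of all genes.

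Lars2, the mitochondrial leucine synthetase, stood apart by its level. It had normalised counts of 68736, 54406, 53122 and 41154 in the marrow libraries and 26864, 19812, 22044 and 31922 in the intestinal ones, a difference of -1.11 ± 0.24 (SE; adjusted p = 0.00693). By length-corrected level it was second of all translation genes in bone marrow, at 635 ± 103, while the next mitochondrial synthetase, Rars2, was at 16.2 ± 1.28. The Lars2 counts moved with those of CT010467.1, a gene annotated as ribosomal RNA, which had 421754 to 650268 normalised counts in bone marrow and 216908 to 305501 in small intestine. Lars2 was 9.76% to 10.6% of CT010467.1 in the marrow libraries and 9.01% to 11.99% in the intestinal ones, although Lars2 itself varied 3.47-fold over the 8 libraries. Whether ribosomal RNA reads are counted under Lars2 was not tested.

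Cytosolic and mitochondrial genes were set side by side for 14 amino acids, in 15 pairs because the cytosolic phenylalanine enzyme has 2 subunits, Farsa and Farsb. Both genes fell in 4 pairs, the cytosolic gene alone in 8, the mitochondrial gene alone in 2 and neither in 1. The cytosolic gene had the more negative difference in 12 of 15. The clearest reverse was tyrosine, where Yars did not pass at -0.16 and Yars2 was at -2.14. For isoleucine it was the other way round, with Iars at -2.08 and Iars2 at -0.31 ± 0.19, which did not pass. Of the 8885 exon bases of Iars2, 2034 are shared on the opposite strand with Rab3gap2, which had a mean normalised count of 1969, and without a known strand setting their reads could not be told apart there. The difference between the members of a pair was not tested.

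**Figure D3:**
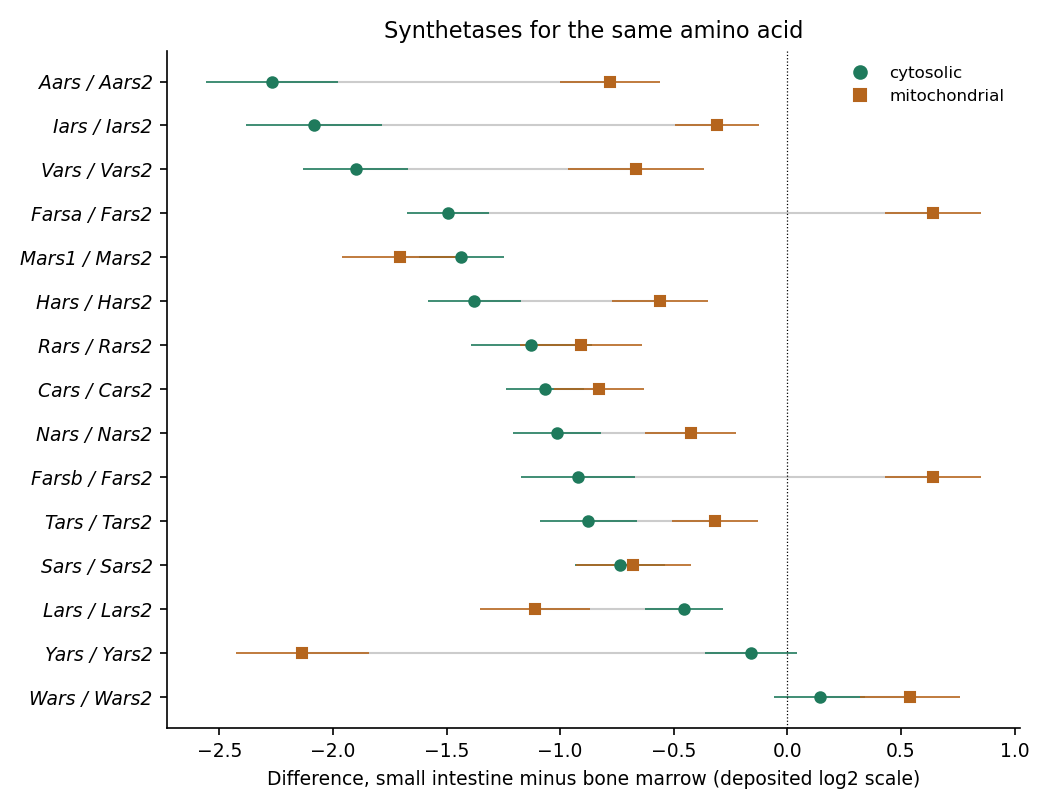
Difference between small intestine and bone marrow (x axis, deposited log2 scale, with limma standard errors, n = 4 libraries per tissue) for cytosolic (green circles) and mitochondrial (brown squares) synthetases of the same amino acid, 1 pair per line (y axis). The cytosolic gene lies further left in 12 of 15 pairs, and Yars2, Lars2 and Mars2 lie left of their cytosolic partners.

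Related genes were then set against each other inside each library, which removes the scaling of the library for well-read genes. The difference of their deposited values was compared between tissues with an exact 2-sided permutation test over the 70 assignments of 8 libraries, where 0.0286 is the smallest possible p, and 8 pairs were tested. Eif1 stood above Eif1b by 0.81 ± 0.24 in marrow and by 3.64 ± 0.25 in intestine (log2, SD, n = 4), a shift of 2.83. Eif4e minus Eif4e3 turned from 1.80 ± 0.22 to -0.84 ± 0.29, so that Eif4e had more reads in every marrow library and Eif4e3 in every intestinal one. Eif5a minus Eif5a2 went from 8.55 ± 0.54 to 4.53 ± 0.43. Eif4g1 minus Eif4g3 went from -0.37 ± 0.11 to -1.67 ± 0.33, Eif4ebp1 minus Eif4ebp2 from -2.23 ± 0.21 to -3.04 ± 0.15 and Eif4a1 minus Eif4a2 from 0.37 ± 0.11 to -0.30 ± 0.36. All of these had an exact permutation p of 0.0286, adjusted to 0.0327 over the pairs, with no overlap of the tissues. For Eif4a1 minus Eif4a2 the adjusted exact permutation p was 0.0653 without any 1 of the marrow libraries. Eef1a1 minus Eef1a2 had the same p, but it rests on at most 4 reads of Eef1a2 per library. Eif3j1 minus Eif3j2 did not differ detectably (shift -0.16, exact permutation p = 0.629).

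**Figure D4:**
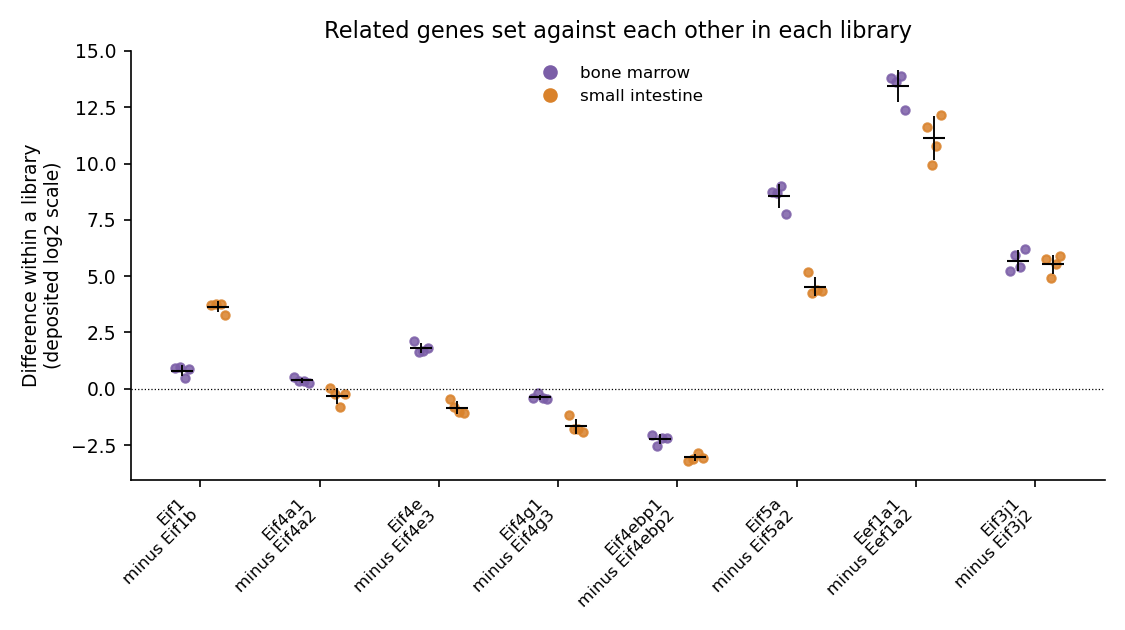
Deposited log2 value of one gene minus that of its relative in each library (y axis) for 8 pairs (x axis), with bone marrow in purple and small intestine in orange. Bars are the mean and SD of 4 libraries. Only Eif3j1 minus Eif3j2 overlaps between tissues, and Eif4e minus Eif4e3 crosses 0.

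Genes that work beside these factors were examined in 9 lists. For comparison, 12.9% of all genes were called lower and 22% higher. Among genes averaging at least 10 reads, the shares were 28.6% and 34.6%. The mitochondrial translation factors fell in 8 of 11 cases and rose in 0, led by the release factors Mtrf1 (-2.31) and Mtrf1l (-2.08). Of 11 poly(A)-binding proteins and partners of eIF4F, 6 fell and 2 rose. Pabpc1, which binds the poly(A) tail and eIF4G, went from 28474 ± 1046 in bone marrow to 9979.9 ± 1592 in small intestine normalised counts (SD, n = 4), a difference of -1.53 ± 0.19 (SE; adjusted p = 0.00034). Mknk1, a kinase of eIF4E, rose by 1.64 ± 0.18 while Mknk2 was at -1.03 ± 0.20, and the helicase gene Ddx3x rose by 1.30 ± 0.16. Of 8 termination and recycling factors, 4 fell and 2 rose (50% and 25%). The release factor Etf1 was higher by 0.96 ± 0.18, and its partner Gspt1 was lower, at -1.67 ± 0.24. Of 8 scaffolds and other partners of the synthetases, 5 fell and 0 rose.

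Of 5 genes for enzymes of hypusine and polyamine synthesis, 3 fell and 1 rose. Srm, which makes spermidine, went from 752 ± 38.5 in bone marrow to 70.7 ± 18.7 in small intestine normalised counts, a difference of -3.38 ± 0.23 (SE; adjusted p = 1.25e-05). Dhps and Dohh, which build hypusine on eIF5A, were at -0.92 ± 0.21 and -0.94 ± 0.23. Odc1, the first enzyme of polyamine synthesis, was higher by 0.60 ± 0.18 (adjusted p = 0.0282, limma), a call that was lost without BM_1, without BM_4 and with both median centrings. Of 13 genes for selenocysteine and for diphthamide, the modified residue of eEF2, 5 fell and 3 rose (38.5% and 23.1%).

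ATF4 is the transcription factor that is translated when eIF2 is phosphorylated, and all 20 genes of its list changed, 9 down and 11 up. The lowered ones included enzymes of serine, glycine and asparagine synthesis. Phgdh went from 412 ± 25.9 in bone marrow to 16.1 ± 4.58 in small intestine normalised counts (-4.43 ± 0.23), and Psat1, Shmt2 and Asns were at -3.75 ± 0.23, -2.95 ± 0.21 and -2.15 ± 0.35. The amino acid transporter gene Slc7a5 and Mthfd2, an enzyme of mitochondrial folate metabolism, were at -2.90 ± 0.26 and -2.45 ± 0.30. The raised ones included Atf4 itself (1.37 ± 0.17), Slc7a11 (8.26 ± 0.22), the cystine transporter, and Ppp1r15a (7.11 ± 0.27), which brings a phosphatase to eIF2. Atf3, also in the list, rose by 8.57 ± 0.22 and is among the 15 dissociation transcripts given above. The list therefore had no single direction, and its median was 1.17.

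Of 14 genes of mTORC1, the kinase complex that acts on the eIF4E-binding proteins, 3 fell and 5 rose (21.4% and 35.7%). These shares were near those of all genes averaging at least 10 reads, and Mtor did not pass (-0.20 ± 0.18). Of 9 genes of the Myc network, 2 fell and 6 rose. Myc, which binds the E-box shown above and is known to drive genes of protein synthesis, went from 2647 ± 251 in bone marrow to 645 ± 120.2 in small intestine normalised counts, a difference of -2.05 ± 0.21 (SE; adjusted p = 0.000124). Mxd1, a partner of Max that represses Myc sites, rose by 3.74 ± 0.28, and Max by 1.25 ± 0.20. Whether the changes in the Myc network bear on the translation genes was not tested. With the libraries centred on the median of all genes, 12 of the 29 genes called higher over the 9 lists were still called higher, and 61 instead of 45 were lower.

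**Figure D5:**
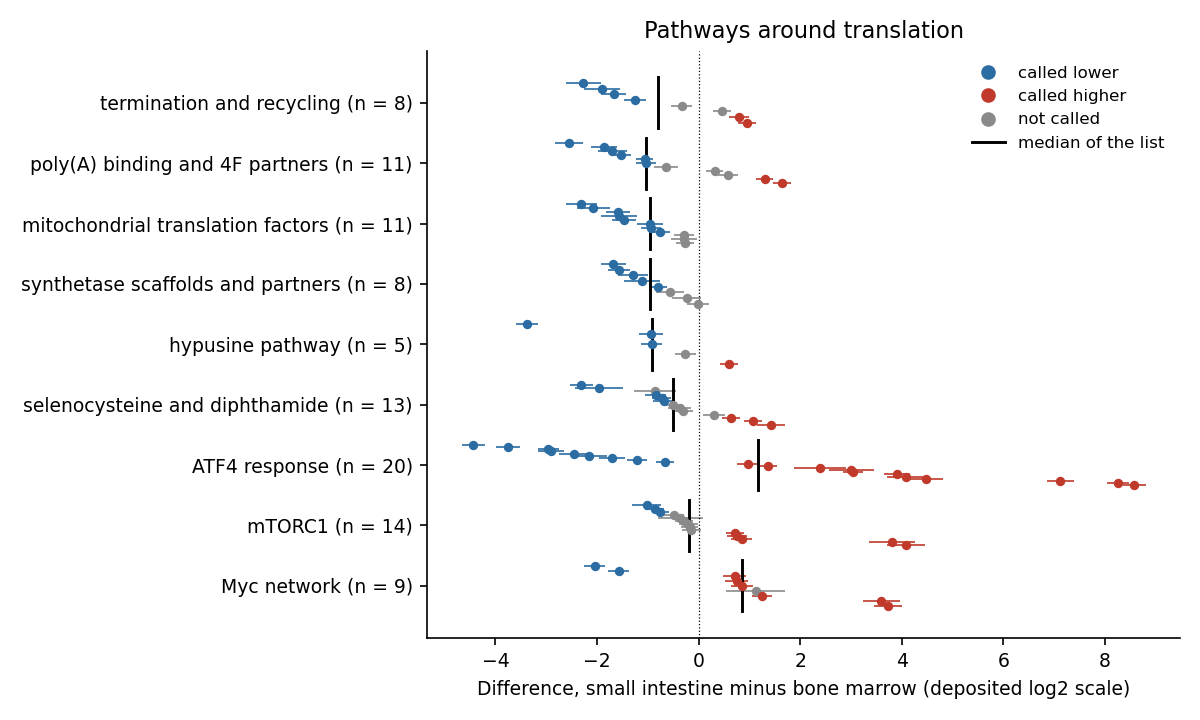
Difference between small intestine and bone marrow (x axis, deposited log2 scale, with limma standard errors, n = 4 libraries per tissue) for the genes of 9 lists (y axis), coloured by their call, with black bars for list medians. The ATF4 list reaches from -4.43 to 8.57, while the mitochondrial translation factors lie at or below -0.27.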

How the data were processed

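RNA-seq was performed on 4 bone marrow and 4 small intestinal samples labelled as eosinophils. RNA was amplified to cDNA (NuGEN Ovation), sequenced from a single end, aligned to GRCm38 (Ensembl 86) and counted per gene. The values deposited by the authors are log2-scale values from the variance stabilisation of DESeq2 (R 4.0.3, per the labels). Whether strand was used, and how reads with several matches were counted, is not given in the sources used here. In all, 11 translation genes share more than 10% of their exon bases with another gene on either strand. They include Eif3d (2151 of 4968 bases, Gm17638), Eif3j1 (1107 of 5830, Spg11) and Eif5b (1643 of 9753, Rev1), all on the opposite strand.

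The transformation was inverted from its lowest value, 0.92971568, which gave whole reads within 0.05 for 100% of genes in each library. Normalised counts are these reads divided by the size factor, and length-corrected levels use exon lengths of GENCODE M21, which also gave coordinates. Column names gave the tissue of a library but not its sample, and replicate libraries of a tissue differed by more than counting noise. Depth, 11508002 to 21289164 reads, limits precision chiefly for the 6 translation genes with a mean under 10 reads.

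All 38392 genes were fitted with limma 3.58.1 (R 4.3.3) on the deposited values (constant prior, 2-sided, neither covariates nor a filter on low values) with Benjamini-Hochberg adjustment over all genes and a threshold of 0.05. This took the place of the count model of the authors because of the deposited unit. Pairs of related genes were compared with exact permutation tests. Counting and figures used Python 3.11.15 with matplotlib 3.10.9, scipy 1.17.1, pandas 2.3.3 and numpy 2.4.6. Alternatives were an intensity trend, limma voom on the recovered reads, 3 other scalings, a filter at a mean of 10 reads, a difference of at least 1, and leaving out each library.

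The genes and the 9 pathway and 14 cell marker lists were chosen with earlier results of these data known. Genes named in detail were, in each role group, the 2 largest falls and 2 largest rises among called, non-overlapping genes with a mean of at least 100 normalised counts in 1 tissue, every such gene called higher, the 3 highest length-corrected levels in each tissue, both genes of each related pair and groups of 5 or fewer. Other named genes were chosen after their values were seen. The pair of synthetases of 1 further amino acid is not reported here.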

Additional observations from a re-analysis of the deposited data

Results flagged for a closer look

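In a group of 4 libraries, a library was flagged when its gap to the nearest other one exceeded, as a share of the range of the group, the 95% critical value of Dixon's test. Of 94 groups, for 47 genes in 2 tissues, 5 were flagged, where chance alone would flag about 1 in 20, or 4.7. In small intestine, SI_6 was the highest library for Eif1ax, with a gap of 0.863 of the range, and for Eef1g, with 0.845. SI_6 also had the highest share of intestinal epithelial (0.248%) and dividing cell (0.0678%) transcripts among the intestinal libraries, and its part in these values was not tested. In bone marrow, BM_1 was the highest library for Eif3j2 (0.848), BM_5 for Eef1a2 (1) and BM_4 the lowest for Eif2c5 (0.842), all genes with at most 9 reads in any library.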

How the results depend on the processing

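Of the 61 genes called lower, 55 stayed so in every other fit and scaling tried. Of the 8 called higher, 7 stayed so in each fit without 1 library but only 1, Eif5a2, in every other fit and scaling. Eprs, Eif1, Eef2k, Eif2ak4 and Eif4e3 each lost the call only with centring on the median of all genes. Centring on the median of genes averaging at least 10 reads gave 63 lower and 7 higher. Without replicate libraries, each left out in turn, 55 to 66 genes were lower and 7 to 11 higher. Requiring a difference of at least 1 left 39 lower and 6 higher, and over the pathway lists 18 higher. An intensity trend gave 14 higher. Centring on the median of all genes lowers every difference by the same 0.90 and so turns those between 0 and 0.90. It gave 1 higher, and 12 higher over the lists. Among the 47 genes named in detail, it turned Eef1a2 (-0.055), Eef2k (-0.11), Eif2c5 (-0.24), Eif4a2 (-0.38) and Eif4ebp3 (-0.47). It also turned Eif4g2 (-0.56), Eif4g3 (-0.47), Eif6 (-0.76) and Fars2 (-0.26). Other translation genes in that range, such as Wars (0.14) and Eif4e2 (0.34) before centring, turn too and are not listed. Of the same 47, quantile normalisation turned Eif2c5 (-0.094), Eif4ebp3 (-0.36), Eif4g2 (-0.52) and Eif4g3 (-0.079). The cause of the changes with quantile normalisation was not tested. Eif3j2 ran from -0.21 to 0.17 as libraries were left out, with 0.17, 0.095 and 0.11 without BM_1, SI_11 and SI_6. Leaving out 1 library, the shift of Eif4a1 minus Eif4a2 ran from -0.80 to -0.51 and that of Eef1a1 minus Eef1a2 from -2.66 to -1.91, with an adjusted exact permutation p of 0.0653, which misses the threshold, for Eif4a1 without any 1 marrow library and for Eef1a1 without BM_1, BM_3, BM_4, SI_7 or SI_10. That of Eif3j1 minus Eif3j2 ran from -0.31 to 0.041, at 0.0066 without BM_5 and 0.041 without SI_7. No paired analysis was possible because the replicate numbers in the labels are not shared between the tissues. The 4 libraries a tissue, the unstated handling of multiply matching reads and the different preparation of the tissues limit all comparisons.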
